A study of Homo sapiens with 5 samples.

Results

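The mitochondrial genome is a small circle that encodes 13 subunits of the respiratory chain and ATP synthase, the 2 rRNAs of the mitochondrial ribosome and 22 tRNAs. Its strands, called heavy and light, are each transcribed as long precursors, and most mRNAs and rRNAs are released when the tRNAs that lie between them are cut out. Mitochondrial mRNAs then receive short poly(A) tails, which in many of them also complete the stop codon. MT-ND6, the mRNA read from the light strand, is known as the exception that is not polyadenylated.

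Transcripts of this genome were taken from a comparison of drug-tolerant and parental PC9 cells. PC9 is an established human lung adenocarcinoma line with an activating EGFR mutation, and all libraries come from this single line. There were 3 parental libraries, and 2 of cells first exposed for 6 days to 50 nM gefitinib, which inhibits the EGFR kinase, and then left in growth medium for 3 days. Whether replicates were separate cultures is not stated in the labels, so p-values measure only a spread between libraries that may be technical. RNA was isolated with TriZol and made into libraries with a stranded kit that captures poly(A) RNA.

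Members are the genes whose symbol begins with MT- followed by ND, CO, ATP, CYB, RNR or T. The symbol column of the authors' deposited table matched this rule in 0 rows, because it uses names such as ND1 or is empty there, so symbols were assigned through the Ensembl gene IDs. This gave 30 members of 27477 genes, with all 13 mRNAs, both rRNAs and 15 of the 22 tRNAs. The tRNA rows comprise 8 of the 8 read from the light strand and 7 of the 14 read from the heavy strand, and the other 7 were not analysed here. A member is called changed where the adjusted p of DESeq2 in the authors' deposited table is under 0.05. Of the 30 members, 23 have such a value, namely every mRNA and rRNA and 8 tRNAs.

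Counted reads per library ran from about 14.2 to 21.4 M. Reads per library could be recovered for genes of low mean level, and there the libraries did not lie together by group. Parental b and c were the closest pair, with a chi-square per degree of freedom of 1.06 over 2136 genes (p = 0.037 for counting error alone), so they may be similar cultures or 1 RNA, and were kept apart except where said. The drug-tolerant pair gave 1.11. Parental a gave 1.40 and 1.46 against the drug-tolerant pair, but 3.87 and 3.92 against its own group. For each read of a transcript under 2000 nucleotides, parental a had 0.220 reads of transcripts over 4000, the drug-tolerant pair 0.202 and 0.190, and parental b and c 0.161 and 0.154. Values per library could not be had for the mRNAs and rRNAs, so none of their results can be given without parental b and c. The 6 epithelial markers were present, with KRT8 at a mean level of 35758 and EPCAM at 8755, whereas COL1A1 was the 1 fibroblast marker of the 5 fixed with a row. Of these 6, 5 had negative log2 fold changes in the authors' deposited table. KRT7 was at -0.60 ± 0.29, KRT19 at -0.56 ± 0.29, KRT18 at -0.33 ± 0.29, KRT8 at -0.11 ± 0.25 and EPCAM at -0.11 ± 0.25. CDH1 went the other way, at 0.40 ± 0.27. The endothelial PECAM1 (mean level 1616) was at 0.57 ± 0.26 and CDH5 (253) at 0.36 ± 0.26 in the authors' deposited table, while VWF stood at a mean level of 6.61. No marker was called, and the part of these shifts in the members' values was not tested.

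Sequences at the ends of the annotated genes are shown because the libraries were poly(A)-selected. The last 30 bases of 6 mRNA genes are given as the coding strand of GENCODE release 29, GRCh38, with the bases of the stop codon in capitals. The first 3 lack 1 or more stop codon bases, which the tail supplies, and the last 3 encode the whole codon. A gene end need not be the end of its mRNA, since MT-ND4L overlaps MT-ND4 by 7 bases on a shared mRNA. Where each mRNA ends was not tested.
MT-ND1: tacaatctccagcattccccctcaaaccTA
MT-ND4: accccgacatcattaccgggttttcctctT
MT-CYB: taattgaaaacaaaatactcaaatgggccT
MT-ND4L: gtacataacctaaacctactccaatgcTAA
MT-CO1: ttcgaagaacccgtatacataaaatctAGA
MT-ND6: attgtaattgagattgctcgggggaatAGG
In all, 6 mRNA genes end in a partial stop codon and 7 in a complete one. MT-CO1 ends in AGA and MT-ND6 in AGG, triplets that are arginine codons in the nuclear code.

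Members were among the most abundant rows of the table. They took 5 of the 10 highest mean levels and 11 of the 20 highest, where the mean level averages, over the 5 libraries, reads scaled by size factors that correct for depth. Together the 30 members held 9.55% of the total mean level in the authors' deposited table. The mRNAs held 7.98%, the rRNAs 1.55% and the tRNAs 0.0239%. Genes read from the heavy strand held 9.40% and those read from the light strand 0.155%.

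Per kilobase of transcript, the mRNAs spanned from 45060 to 216753 normalised reads in the authors' deposited table. The highest values belonged to MT-ATP8 (216753), MT-ND4L (209161) and MT-ND4 (205774), followed by MT-CO2 at 199738 and MT-CO1 at 167080. MT-ATP8 and MT-ATP6 encode ATP synthase subunits, MT-ND4L and MT-ND4 subunits of complex I, and MT-CO1 and MT-CO2 the catalytic subunits of cytochrome c oxidase. MT-CO3 (143067), MT-ND1 (133072), MT-ATP6 (119638) and MT-ND2 (102780) lay in the middle of the range per kilobase in the authors' deposited table. The lower end was formed by MT-CYB (64333), which encodes the cytochrome b of complex III, with MT-ND3 (63711), MT-ND5 (57598) and MT-ND6 (45060) of complex I. Without values per library, neighbours in this order cannot be told apart from equal levels. The complex I mRNAs thus lay at the top as well as at the bottom of the order, and the 3 lowest were all theirs. Among rRNAs, MT-RNR2 of the large ribosomal subunit stood at 153610 per kilobase and MT-RNR1 of the small subunit at 40696 in the authors' deposited table. The libraries capture poly(A) RNA, so these are levels of captured RNA, and how they relate to total rRNA was not tested.

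Transcripts that share bases limit how reads can be assigned. MT-ATP8 and MT-ATP6 lie on one mRNA and overlap by 46 bases (chrM:8527-8572, GRCh38, plus strand), of the 207 of MT-ATP8. Capitals in the shared stretch mark the start codon of MT-ATP6 and the stop codon of MT-ATP8.
MT-ATP8 and MT-ATP6 shared bases: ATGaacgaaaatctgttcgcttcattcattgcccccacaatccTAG
MT-ND4L and MT-ND4 overlap by 7 bases and also share an mRNA. How reads that cover both were counted is not given in the sources used here. Reads of short genes can reach beyond their ends, and how many of them do was not measured. MT-ND6 adjoins MT-ND5 on the opposite strand with 0 bases between them, and the use of strand in counting is also not given, so reads of MT-ND6 and of transcripts antisense to it cannot be told apart.

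**Figure D1:**
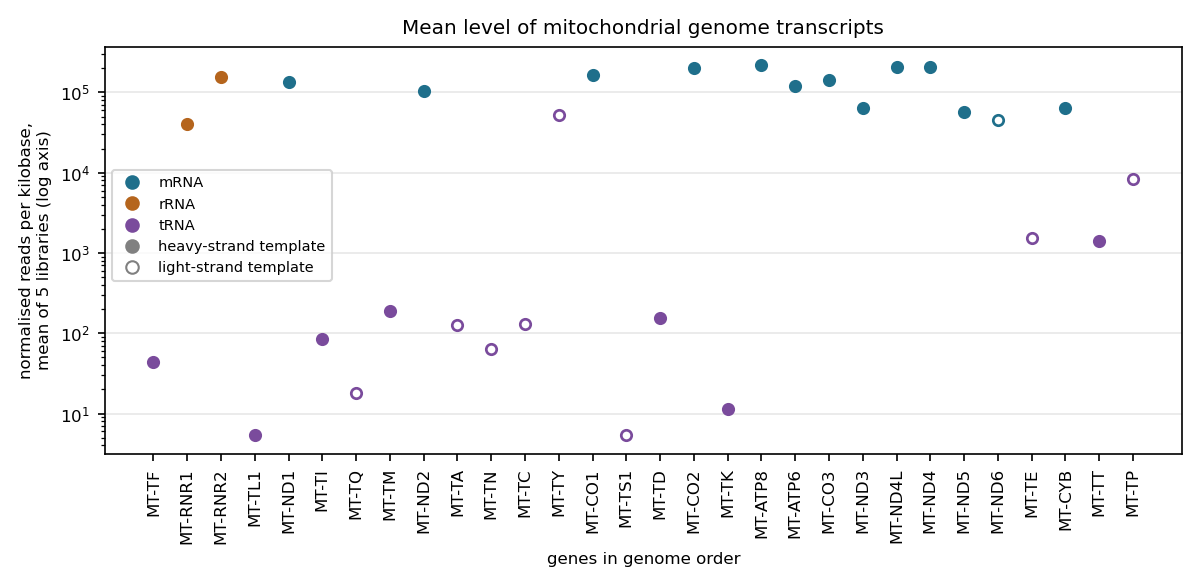
Mean level per kilobase over the 5 libraries (normalised reads, log axis) of the 30 members in genome order, coloured by class, with filled points for genes read from the heavy strand and open points for the light strand. The mRNAs and rRNAs lie between 40696 and 216753, and among tRNAs MT-TY reaches 52734.

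The mRNAs had lower values in drug-tolerant cells, and none of them was called. All 13 log2 fold changes in the authors' deposited table were negative, from -0.61 to -0.14 with a median of -0.43, against a median of -0.02 over the 15223 genes tested. DESeq2 called 0 of the 13 in the authors' deposited table, where 0.552% of tested genes were called, 0.289% lower and 0.263% higher, and 0 had an unadjusted p under 0.05, where 10.8% of tested genes did in either direction. Adjusted p-values of the mRNAs by DESeq2 ran from 0.48 to 0.80. Fold changes in the table are moderated towards 0. In such bulk RNA, fewer cells rich in mitochondria and less mitochondrial RNA per cell cannot be told apart, and neither was tested. Nuclear protein-coding genes of 500 to 1812 nucleotides had a median of -0.43 as well, as given below. MT-ATP8 (207 nucleotides), MT-ND4L (297) and MT-ND3 (346) are shorter than that range.

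Complex I mRNAs gave both ends of this range. MT-ND1 was at -0.61 ± 0.35 (SE), a ratio of 0.654, with a 95% interval from -1.30 to 0.07 and an adjusted p of 0.49 by DESeq2 in the authors' deposited table. MT-ND2 was at -0.59 ± 0.33 and MT-ND6 at -0.55 ± 0.30 (adjusted p 0.48, DESeq2) in the authors' deposited table. MT-ND4, the most abundant row of all with a mean level of 283556, was at -0.44 ± 0.31, and MT-ND3 at -0.37 ± 0.28 in the authors' deposited table. MT-ND5 (-0.15 ± 0.22) and MT-ND4L (-0.14 ± 0.25) lay nearest to 0 in the authors' deposited table. MT-ND4L thus lay above MT-ND4, with which it shares an mRNA, by more than its own standard error and less than that of MT-ND4. The median of the 7 complex I mRNAs was -0.44 in the authors' deposited table.

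The other complexes fell within the same range. MT-CYB of complex III was at -0.49 ± 0.29 in the authors' deposited table. For cytochrome c oxidase the values were -0.46 ± 0.33 for MT-CO2, -0.31 ± 0.28 for MT-CO3 and -0.15 ± 0.26 for MT-CO1 in the authors' deposited table. The ATP synthase pair, MT-ATP6 at -0.43 ± 0.30 and MT-ATP8 at -0.41 ± 0.25, had nearly equal values in the authors' deposited table. Differences between members were not tested, because their errors come from the same libraries and their covariance cannot be had from the table.

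The 6 mRNAs whose stop codon is completed by the tail had a median log2 fold change of -0.47, from -0.61 to -0.31, in the authors' deposited table. The 7 with an encoded stop codon had a median of -0.41, from -0.55 to -0.14. Their levels per kilobase overlapped too, with medians of 117926 and 167080 normalised reads. MT-ND6 thus lay within the range of the polyadenylated mRNAs in fold change, and was the lowest of the 13 in level per kilobase.

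Both rRNAs had negative values. MT-RNR1, at a mean level of 38824, had a log2 fold change of -0.59 ± 0.24 (95% interval -1.07 to -0.12; adjusted p 0.39, DESeq2) in the authors' deposited table. Its unadjusted p of 0.014 was the 1 value under 0.05 among the 23 members tested, and 7.1% of tested genes were lower at that threshold. MT-RNR2, with a mean level of 239478, was at -0.35 ± 0.26 and an adjusted p of 0.54 by DESeq2 in the authors' deposited table. These rRNAs are cut from the precursor that also yields the mRNAs, and their values lay within the range of the 13 mRNAs.

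**Figure D2:**
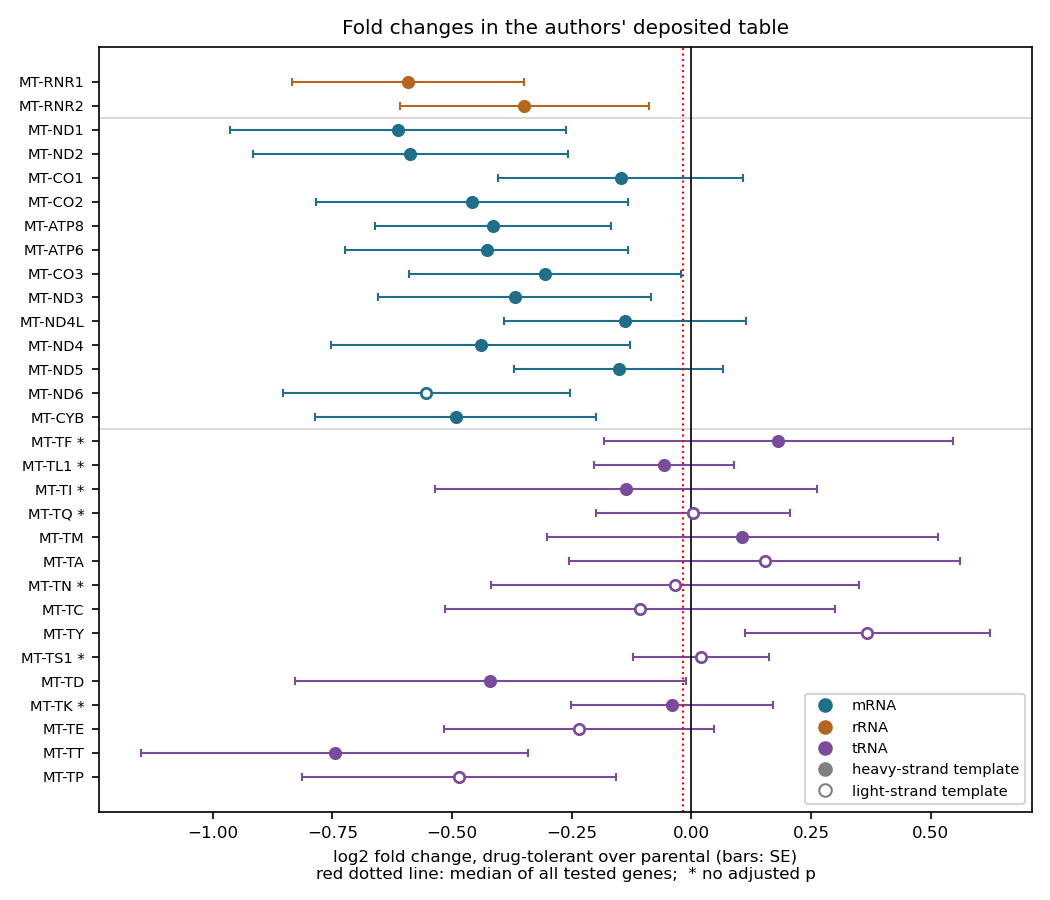
Log2 fold change of drug-tolerant over parental cells in the authors' deposited table with its standard error for the 30 members, grouped as rRNA, mRNA and tRNA, with open points for the light strand and an asterisk where no adjusted p exists. All 13 mRNAs and both rRNAs lie below 0, while tRNAs lie on either side.

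From the deposited mean levels and fold changes, and the numbers of libraries in each group, the members' share of all normalised reads was estimated at 10.1% in parental and 8.63% in drug-tolerant cells. The estimate was 8.45% and 7.21% for mRNAs and 1.64% and 1.39% for rRNAs. For tRNAs it went the other way, with 0.0216% in parental and 0.0277% in drug-tolerant cells, and most of the tRNA level belongs to MT-TY. It uses fold changes that are moderated towards 0, and carries no error because values per library were not available.

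Fold changes in this comparison followed transcript length, and the mitochondrial mRNAs and rRNAs are short. Among 12448 nuclear protein-coding genes, split into 10 groups by length, the median log2 fold change in the authors' deposited table was -0.48 in the shortest group (median length 1258 nucleotides) and 0.39 in the longest (9620). Over the 1575 nuclear protein-coding genes of 500 to 1812 nucleotides, a range chosen after the values were seen, the median was -0.43 and 87.8% were negative. Of the mitochondrial mRNAs, MT-ATP8, MT-ND4L and MT-ND3 are shorter than this range. Over the 177 genes outside the members and their nuclear copies with a mean level of at least 10000, the median was -0.33 and 69.5% were negative.

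After the trend with length and GC content was removed, the mRNA median turned from -0.43 to 0.10, with 4 of the 13 negative and 9 positive. MT-RNR1 moved from -0.59 to -0.065 and MT-RNR2 from -0.35 to 0.043. MT-ND4L (0.41) was then the highest mRNA and MT-ND1 (-0.069) the lowest. Trend values used the length and GC content of each annotated gene. MT-ND4L (trend -0.55) and MT-ND4 (-0.41) thus received different trend values though they share an mRNA. The trend was held flat below 1006 nucleotides, which covers 9 of the 15 mRNAs and rRNAs. This trend and the position of parental b and c cannot be told apart. Among genes of low mean level, b and c hold fewer reads of long transcripts than the other 3 libraries. Whether this also holds for genes at the level of the mRNAs and rRNAs was not tested, because values per library could not be had there.

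**Figure D3:**
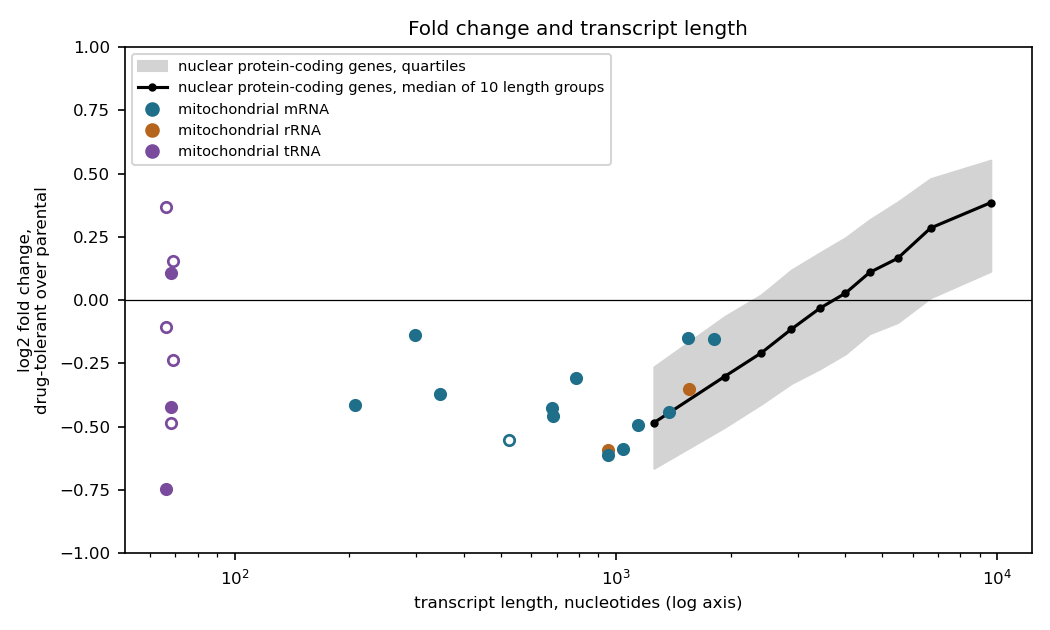
Log2 fold change in the authors' deposited table against transcript length (log axis) for the 23 members with an adjusted p, over the median (black line) and quartiles (grey) of 10 length groups of nuclear protein-coding genes. All mitochondrial mRNAs and rRNAs lie below 0, as does the shortest nuclear group with a median of -0.48.

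Transfer RNAs are the short adaptors that read codons, and mature ones carry no poly(A) tail. The libraries capture poly(A) RNA, so tRNA rows give levels of captured RNA, and how these relate to mature tRNA was not tested. The tRNA rows differed widely in level. The sequences of the 4 highest and of MT-TC, which adjoins MT-TY, are shown with the anticodon in capitals, found as the middle of a loop closed by a stem and matched to the amino acid in the gene's name.
MT-TY: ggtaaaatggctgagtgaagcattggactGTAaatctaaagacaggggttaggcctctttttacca
MT-TC: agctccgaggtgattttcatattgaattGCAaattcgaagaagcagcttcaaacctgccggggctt
MT-TP: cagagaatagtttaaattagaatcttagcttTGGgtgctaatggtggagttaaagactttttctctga
MT-TE: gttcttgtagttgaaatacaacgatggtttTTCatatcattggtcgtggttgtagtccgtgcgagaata
MT-TT: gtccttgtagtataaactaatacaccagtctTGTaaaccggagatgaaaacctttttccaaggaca

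MT-TY, the tyrosine tRNA (chrM:5826-5891, GRCh38, minus strand), had a mean level of 3480, or 52734 per kilobase, in the authors' deposited table. MT-TC, which overlaps it by 1 base on the same strand, had 8.51, and MT-TA and MT-TN of the same light-strand cluster had 8.86 and 4.63. MT-TY lies 12 bases before MT-CO1, which is read from the opposite strand. The next highest tRNA rows were MT-TP at 566, MT-TE at 104.7 and MT-TT at 92.5, for proline, glutamate and threonine. MT-TP and MT-TT lie next to each other at the end of MT-CYB on opposite strands. MT-TE adjoins MT-ND6 and lies 4 bases before MT-CYB, which is read from the opposite strand. The remaining 11 rows had mean levels from 0.373 (MT-TS1) to 13.0 (MT-TM). Thus 3 of the 4 highest tRNA rows are genes read from the light strand. The use of strand in counting is not given, so their reads and those of the opposite strand cannot be told apart.

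No tRNA was called by DESeq2, and 0 of the 8 tested had an unadjusted p under 0.05, in the authors' deposited table. Over all tested genes these shares were 0.552% and 10.8%, so counts of 0 among 8 do not set the tRNAs apart. MT-TY had the highest fold change of the members, 0.37 ± 0.26 (adjusted p 0.53, DESeq2; 95% interval -0.13 to 0.87), in the authors' deposited table. MT-TT had the lowest, -0.74 ± 0.40 (adjusted p 0.48, DESeq2), with MT-TP at -0.49 ± 0.33 and MT-TE at -0.23 ± 0.28 in the authors' deposited table. Of the 8 tested, 5 were negative and 3 positive, with a median of -0.17, which moved to -0.33 and -0.36 at a mean level of at least 10 and 50 and to -0.041 over all 15 rows. With the length and GC trend removed, MT-TY was at 0.93 with an adjusted p of 0.047, the 1 member called under the settings tried, where 0.607% of all genes with a trend value were called. That call rests on a trend value carried over from longer genes, since the trend was held flat below 1006 nucleotides, the shortest nuclear gene in it has 270 and MT-TY has 66.

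By strand, the authors' deposited table gave negative values for 16 of the 17 tested genes read from the heavy strand, whose median was -0.42. The 6 tested genes read from the light strand, MT-ND6 and 5 tRNAs, had a median of -0.17 with 4 negative. The light-strand median moved to -0.36 at a mean level of at least 10 or 50, where the heavy-strand median was -0.42 or -0.43, and to -0.035 with no filter, beside -0.37. The gap between the strands thus depends on which low tRNA rows are kept. The difference between strands was not tested, and the light-strand group is nearly all tRNA rows. Within tRNAs the median was -0.42 for the 3 tested from the heavy strand and -0.11 for the 5 from the light strand.

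Reads per library were recovered for the 11 tRNA rows with a mean level under 15. They are whole reads solved from the deposited mean level, and the libraries are named a, b and c within a group because they could not be matched to replicate numbers. MT-TM, the methionine tRNA, had 14, 18 and 7 parental reads (a, b, c in order) and 16 and 11 drug-tolerant reads. MT-TD, the aspartate tRNA between MT-TS1 and MT-CO2, had 7, 15 and 18 reads in the parental and 7 and 6 in the drug-tolerant libraries. Divided by size factors, its parental b and c values of 14.7 and 18.7 stood above parental a at 5.88 and the drug-tolerant libraries at 6.17 and 7.61, so the groups overlap through parental a.

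The alanine tRNA MT-TA had 12, 7 and 7 parental reads and 17 and 4 drug-tolerant reads, with the drug-tolerant libraries at the top and bottom of the 5 after division by size factors. The cysteine tRNA MT-TC had 5, 13 and 10 parental reads and 10 and 5 drug-tolerant reads, again with parental b and c highest and parental a lowest. The asparagine tRNA MT-TN had 5, 3 and 7 parental and 7 and 2 drug-tolerant reads. The isoleucine tRNA MT-TI had 11, 6 and 4 parental and 7 and 3 drug-tolerant reads, and the phenylalanine tRNA MT-TF, the first gene of the heavy-strand precursor, 3, 2 and 3 against 6 and 2. MT-TQ, MT-TK, MT-TL1 and MT-TS1 had from 2 to 7 reads in all. In each of the 11 rows the groups overlapped, and 7 of these rows have at least 10 reads in all. Among all genes with at least 10 recovered reads, every drug-tolerant library lay below every parental one in 11.2% and above in 16.9%. A count of 0 among 7 rows does not set the tRNAs apart from these shares.

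Summed over the 11 rows there were 59, 70 and 58 reads in the parental and 74 and 34 in the drug-tolerant libraries. The normalised sums were 49.5, 68.8 and 60.4 in parental and 65.3 and 43.1 in drug-tolerant libraries, a ratio of 0.910 between the group means. The drug-tolerant libraries thus lay lowest and second highest of the 5. A two-sided exact permutation test gave p = 0.6, where 10 arrangements allow no p under 0.1, and with parental b and c counted as 1 sample p = 1.0 (exact permutation, smallest possible 0.333). With this number of libraries neither test could reach a p under 0.05, so they give no answer either way.

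**Figure D4:**
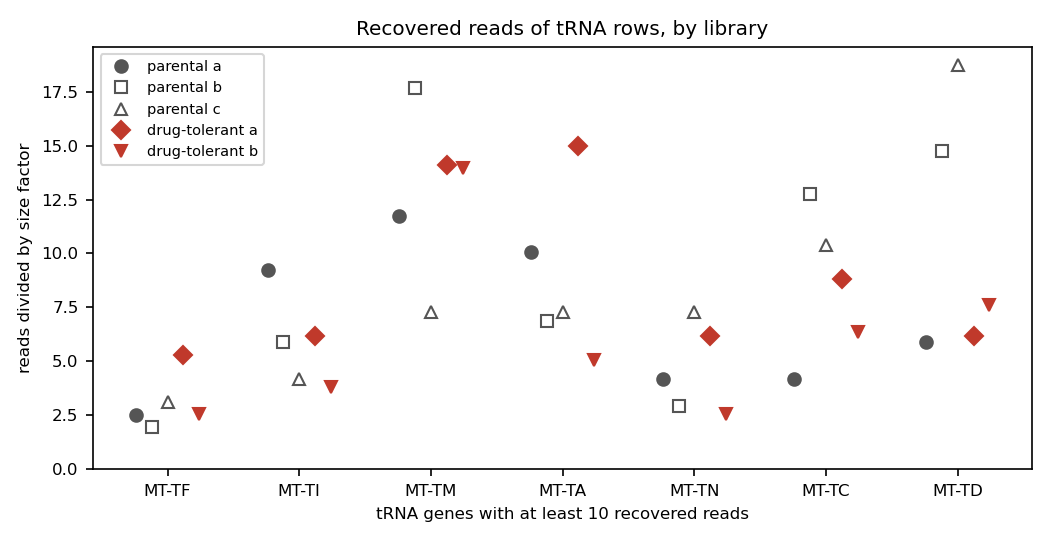
Recovered reads divided by size factor in each of the 5 libraries for the 7 tRNA rows with at least 10 reads in all, with parental libraries in grey and drug-tolerant libraries in red. The groups overlap in each row, and for MT-TD parental b (14.7) and c (18.7) stand apart from the other 3 libraries.

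The nuclear genome holds old copies of mitochondrial sequence, and reads can be shared with them. The table has 63 such rows, of which 13 have an adjusted p, and DESeq2 called 0 of them in the authors' deposited table, with 0 at an unadjusted p under 0.05. The shares over all tested genes were 0.552% and 10.8%, so counts of 0 among 13 do not set the copies apart. High levels were found for 3 of them, all in a single stretch of chromosome 1. MTND2P28 (chromosome 1, 629640 to 630683, GRCh38) had a mean level of 25091, or 23.4% of that of MT-ND2, MTATP6P1 (633696 to 634376) one of 20264, or 24.9% of MT-ATP6, and MTCO1P12 (631074 to 632616) one of 15607, or 6.06% of MT-CO1. Other copies in the same stretch were far lower, with MTND1P23 at 589, MTCO3P12 at 142 and MTCO2P12 at 102.

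These copies are nearly identical to the members. MTND2P28 differed from MT-ND2 at 17 of 1042 aligned bases, MTATP6P1 from MT-ATP6 at 10 of 681 and MTCO1P12 from MT-CO1 at 21 of 1543, gaps included. The 60 bases where the first pair differs most are shown (430 to 489 from the first base of either transcript), with the 4 differing bases in capitals. This stretch was picked for its many differences, and reads from elsewhere in the pair may meet fewer or none.
MT-ND2: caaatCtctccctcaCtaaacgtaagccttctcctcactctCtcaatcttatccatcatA
MTND2P28: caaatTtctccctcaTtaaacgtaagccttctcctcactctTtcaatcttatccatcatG

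Of the 13 tested copies, 10 had a fold change of the same sign as their mitochondrial counterpart and 3 of the opposite sign. The 3 of opposite sign had mean levels of 13.3 or less in the authors' deposited table, with MTND6P4 at 0.07 ± 0.41 beside -0.55 for MT-ND6, MTND5P11 at 0.36 ± 0.41 beside -0.15 for MT-ND5 and MTATP8P1 at 0.18 ± 0.41 beside -0.41 for MT-ATP8. The 3 high copies were among those of the same sign. MTND2P28 was at -0.49 ± 0.30 beside -0.59 for MT-ND2, MTATP6P1 at -0.37 ± 0.30 beside -0.43 for MT-ATP6, and MTCO1P12 at -0.21 ± 0.28 beside -0.15 for MT-CO1 in the authors' deposited table. Each of these pairs of high copy and gene differed by less than its standard errors. The 3 high copies together held 0.339% of the total mean level. How reads that align to both places were counted is not given in the sources used here, so reads of a copy and of its mitochondrial gene are uncertain.

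**Figure D5:**
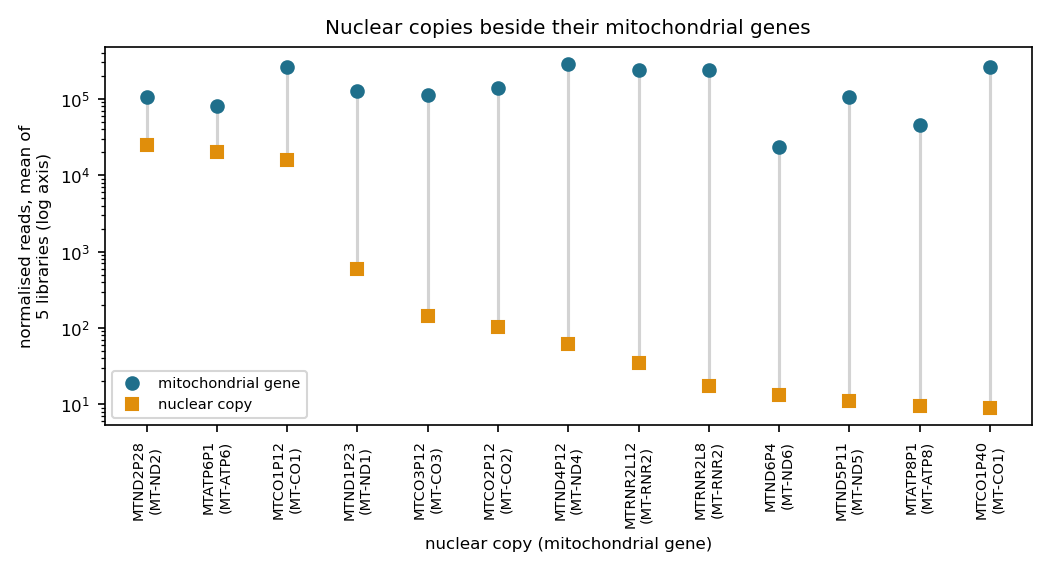
Mean level over the 5 libraries (normalised reads, log axis) of the 13 nuclear copies with an adjusted p, each joined to the mitochondrial gene it derives from. MTND2P28, MTATP6P1 and MTCO1P12 lie at 15607 or above, and the other 10 lie at 589 or below.

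Nuclear genes that transcribe, process and use these RNAs gave no call in any of 5 lists, where the share over all 15223 tested genes is 0.552% called and 10.8% at an unadjusted p under 0.05. At those shares, the 0 to 2 genes per list under 0.05 set no list apart. DESeq2 called 0 of 16 transcription and replication factors in the authors' deposited table, with 2 at an unadjusted p under 0.05 and a median log2 fold change of 0.00062. POLRMT, the mitochondrial RNA polymerase, was at 0.47 ± 0.23 (adjusted p 0.45, DESeq2) and POLG, the DNA polymerase of the organelle, at 0.67 ± 0.33 in the authors' deposited table. Among 21 factors of RNA processing, polyadenylation and decay, 0 were called by DESeq2, 2 had an unadjusted p under 0.05 and the median was 0.19. The helicase DHX30 was at 0.43 ± 0.21 and the exoribonuclease PNPT1, which degrades mitochondrial RNA, at 0.48 ± 0.24 in the authors' deposited table.

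Of 21 RNA modification enzymes, 0 were called by DESeq2 and 0 had an unadjusted p under 0.05, with a median of -0.0038. The tRNA-modifying MTO1 (0.38 ± 0.25) and TRMU (0.27 ± 0.21) had the smallest p-values there in the authors' deposited table. Of 10 biogenesis regulators 8 were tested and 0 called by DESeq2, 0 having an unadjusted p under 0.05, and the coactivators PPARGC1B and PPRC1 were at 0.75 ± 0.41 and 0.46 ± 0.27 in the authors' deposited table. Among 25 assembly factors of the mitochondrially encoded subunits 0 were called by DESeq2 and 1 had an unadjusted p under 0.05, with a median of -0.20. This was SURF1, a cytochrome c oxidase assembly factor, at -0.69 ± 0.35, followed by the complex I assembly factor NDUFAF2 at -0.59 ± 0.35 in the authors' deposited table. The medians of these 5 lists lay between -0.20 and 0.19, beside -0.43 for the 13 mitochondrial mRNAs. Once the trend was taken out, the list medians lay between 0.0048 and 0.15 and the mRNA median of 0.10 lay among them. None of these differences was tested.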

How the data were processed

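STAR, FastQC and DESeq2 with the build hg38 are named in the submitters' processing notes. No version, counting tool, annotation, or rule for strand and multiply aligned reads is given there or in the other sources used. The authors deposited 1 table with a mean level (signal: reads divided by size factors, averaged over libraries), a log2 fold change with its standard error on the log2 scale, a Wald score, and p-values with adjusted p-values. Per the file headers these are DESeq2 columns, and the score equals the ratio of fold change to error within 1.8e-07. The table has no values per library, so edgeR, planned for counts, was not run.

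Symbols came from a table of gene IDs, which held 27082 of 27477 genes. Lengths, strands and sequences are those of GENCODE release 29 (longest transcript). Reads per library were solved from the mean level as sums of 5 steps. All 12705 genes under a mean of 10 and 878 of 879 from 10 to 15 had 1 solution, and 100% of 3963 genes were recovered on simulated libraries. Reads in 3 libraries gave negative and in 2 positive fold changes, so positive values are higher in drug-tolerant cells, and 98.9% of 13583 recovered differences have the deposited sign. The length and GC trend was taken from medians over 20 groups of nuclear protein-coding genes, joined by straight lines and held flat below 1006 nucleotides, and was tested on simulated data. Named genes are the members, tested nuclear copies and the 2 smallest p-values of each list. The members and lists were chosen with earlier results of these data known. Python 3.11.15, scipy 1.17.1 and Biopython 1.88 were used. Alternatives are given in the closing section.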

Additional observations from a re-analysis of the deposited data

How the results depend on the processing

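The number of members called was 0 with no filter on low values, with a mean level of at least 10 or 50, at a threshold of 0.01 and with the score centred and scaled, and 1 (MT-TY) with the length and GC trend removed. Over all genes, 84 were called as deposited, 60, 83 and 85 under the 3 filters, 39 at 0.01, 92 with the trend removed and 1 with the score centred and scaled, where 0 members therefore says nothing. Removing that trend moved the median log2 fold change to 0.10 for mRNAs, 0.39 for tRNAs, 0.10 for genes read from the heavy strand and 0.39 for those read from the light strand, and the values to -0.065 for MT-RNR1 and 0.043 for MT-RNR2. For members under 1006 nucleotides the trend was carried over from longer nuclear genes. The log2 ratio of summed recovered reads was -0.14, ran from -0.47 to 0.13 when each library was left out in turn, with the lowest without drug-tolerant a and the highest without drug-tolerant b, and was -0.44 relative to all recovered reads. The cause of these moves was not tested. Averaging parental b and c, an alternative chosen after seeing the data, gave -0.075. Filters on low values moved the tRNA and light-strand medians between -0.041 and -0.36 and between -0.035 and -0.36. Removing the trend moved the group medians and rRNA values by more than the median standard error of the members. Leaving out drug-tolerant a or b, or scaling to all recovered reads, moved the log2 ratio by more than the SD between parental libraries. The remaining alternatives, filters on low values included, moved values by less than these limits. No paired analysis was possible because the table carries no replicate numbers. For mRNAs and rRNAs no library could be left out, and the low tRNA rows hold 295 reads in all.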

Other observations

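Recovered reads of 54 nuclear copies of mitochondrial sequence with a mean level under 15 summed to 133 in parental a, 67 in parental b, 73 in parental c, and 131 and 85 in drug-tolerant a and b. Divided by size factors, parental a stood at 111.6 and the drug-tolerant libraries at 115.5 and 107.8, while parental b and c stood at 65.8 and 76.0. The low tRNA rows did not follow this order, with sums of 49.5, 68.8 and 60.4 for the parental and 65.3 and 43.1 for the drug-tolerant libraries.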
